A study of Homo sapiens with 16 samples.

Results

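The genes described here are 10 genes of the neuronal cytoskeleton, of peptide signalling and of glutamate uptake: UCHL1, NEFL, NEFM, INA, TUBB3, GAP43, STMN2, MAP2, TAC1 and SLC1A3. They were chosen by gene symbol, with earlier results of the same arrays known, and for a gene with several rows of the expression table the row with the highest mean over the 16 arrays was to be used. Each of 9 genes had exactly 1 row, so the values chose no row, and these 9 are part of the 18417 genes with a transcript cluster of their own. TUBB3 had no such cluster, because its only row was annotated to both TUBB3 and MC1R.

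Expression was measured in A375 cells, a human amelanotic melanoma line, on Affymetrix Human Gene 1.0 ST arrays, with 4 biological replicates per group and 1 array each. The control groups were untransfected A375 cells and PCDNA3 cells, which are A375 cells stably carrying the empty pcDNA3 vector. A7 and G10 are stable A375 transfectants with human catalase cDNA in the same vector, each derived by clonal dilution and therefore 1 clone. Geneticin was present in the cultures of all 3 transfected groups and not in those of A375 cells, and the growth medium was otherwise shared. Values are log2 intensities, and differences are log2 differences of group means. In A7 vs control and G10 vs control, each clone was set against the mid-point of both control groups, so these comparisons share the same 8 control arrays. Since A7 and G10 are single clones, an effect of catalase and a property of the clone cannot be told apart.

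Neurofilaments are the intermediate filaments of axons and are built from light, medium and heavy chains together with alpha-internexin, the product of INA. Microtubules made of tubulin are bound by MAP2 in dendrites and are destabilized by stathmins such as STMN2, while GAP43 lies under the membrane of growth cones. Melanocytes arise from the neural crest, the embryonic tissue that also forms peripheral neurons and glia, and melanoma cells often transcribe some genes of those cells.

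Olfactory receptor genes, taken as a reference for genes that are not transcribed here, had 381 transcript clusters with a median level of 3.49. The 95th percentile of their levels, 5.18, is called the olfactory receptor level below. If only 1 of the groups compared had a mean above it, "at least" marks the difference that remained once the arrays of the dimmer group were set no lower than that level.

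CAT, the transfected gene, was 8.73 ± 0.20 (SD, n = 4) in A375, 8.56 ± 0.10 in PCDNA3, 9.02 ± 0.08 in A7 and 8.27 ± 0.38 in the arrays labelled G10. The values of G10 were 8.51, 8.55, 7.74 and 8.27, and every G10 array lay below every A7 array. In limma, the difference was 0.37 in A7 vs control (adjusted p = 0.124) and -0.38 in G10 vs control (adjusted p = 0.0526), and neither was called. The difference of -0.75 in G10 vs A7 was called (adjusted p = 0.00221 in limma). The arrays labelled G10 had the lowest mean although labelled as catalase transfected, and they overlapped the PCDNA3 arrays. From these same arrays, the gene set analysis of the study also listed CAT as upregulated in A7 and downregulated in G10 vs controls. Which CAT probes also bind the transfected cDNA is not known here. The name G10 is used below only as the label of those arrays, and every direction given for G10 rests on it.

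The 4 G10 arrays fell into pairs over all 33297 transcript clusters. The correlation was 0.994 between G10 arrays 1 and 2 and 0.992 between arrays 3 and 4, but 0.984 to 0.987 between the pairs. In the other 3 groups it ranged from 0.988 to 0.995. Between G10 arrays 1 and 3, 1480 clusters differed by more than 1 log2 unit, whereas 431 did so between arrays 1 and 2. Differences of UCHL1, NEFL, GAP43, TAC1 and MAP2 in G10 are therefore also given without either pair. For SLC1A3 and the other genes named, the G10 differences below rest on all 4 arrays.

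The cells carried melanocytic markers and lacked several defining neuronal ones. All 7 measured genes of the melanocytic list were above the olfactory receptor level in at least 1 group, and in every group except for TYR in A375. Among them, SOX10 had means of 9.32 to 9.56. TYR and MLANA were higher in A7 vs control, by 1.81 and 1.29, and PMEL was higher in G10 vs control, by 2.46. Of the 7 genes, 2 were called in A7 vs control and 1 in G10 vs control, all upward. These were 28.6% and 14.3%, beside 5.69% and 17.8% of all clusters. In G10 vs A7, 1 of the 7 was called, lower in G10, or 14.3% beside 15.2% of all clusters. Of 8 neuron markers, RBFOX3, SYP, SNAP25 and SYT1 were above that level and ELAVL3, ELAVL4, STMN4 and DCX were below it in every group. The mean level of the 8 neuron markers was 5.12 in A375, 5.01 in PCDNA3, 4.98 in A7 and 4.98 in G10. None of them passed an adjusted p of 0.05 in A7 vs control, G10 vs control, G10 vs A7 or PCDNA3 vs A375. Of all clusters, 5.69%, 17.8%, 15.2% and 0.123% did so in the same order. Of the remaining lists, 2 of 4 Schwann and glial, 3 of 4 fibroblast and 2 of 4 keratinocyte markers were above that level. For endothelial and immune markers it was 0 of 3 and 1 of 3. The fibroblast marker LUM was higher in A7 vs control by 0.91. Of the 4 fibroblast markers, 1 was called in A7 vs control, upward, and none in G10 vs control. In G10 vs A7, 1 of the 4 was called higher and 1 lower in G10, where 15.2% of all clusters were called. The part of these markers in the results was not tested.

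Of the 9 measured genes, UCHL1, NEFL, SLC1A3, TAC1 and GAP43 were above the olfactory receptor level in the controls on every array, MAP2 lay around it, and NEFM, INA and STMN2 were below it on all 16 arrays. In A7 vs control, 3 of the 9 genes were upregulated (UCHL1, NEFL, SLC1A3) and 2 were downregulated (TAC1, GAP43) at an adjusted p under 0.05 in limma. Of all clusters 5.69% were called, 3.46% upward and 2.23% downward. The same 3 and 2 genes had no overlap between A7 and control arrays, as did 3.5% of clusters upward and 2.47% downward. In G10 vs control, none was upregulated and 5 were downregulated (UCHL1, NEFL, SLC1A3, TAC1, GAP43), beside 17.8% of all clusters, 9.92% upward and 7.9% downward. The calls of NEFL and GAP43 were lost when PCDNA3 or A375, respectively, was the sole control. All 5 except GAP43 were without overlap, beside 5.96% upward and 4.35% downward. In G10 vs A7, 4 of the 9 were lower in G10 (UCHL1, NEFL, SLC1A3, TAC1) and none was higher, beside 15.2% of all clusters, 7.83% upward and 7.38% downward. These 4 were also without overlap, beside 8.89% upward and 8.48% downward. In PCDNA3 vs A375, none of the 9 was called, beside 0.123% of all clusters, 0.045% upward and 0.0781% downward. Only GAP43 was without overlap there, upward, beside 6.26% of clusters upward and 4.87% downward. The differences of UCHL1, NEFL, SLC1A3 and TAC1 between the clones and the controls were known when the genes were chosen. For these genes the values are therefore a description without a test, and nothing is read from the counts above. The lists of related genes below were also chosen with earlier results of these arrays known. Among their genes, changes of NEFH, KIF5C, MME, NMU, PCSK1, SLC17A6 and SLC38A1 had been reported before. Adjusted p values and shares of list genes are therefore likewise a description.

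**Figure D1:**
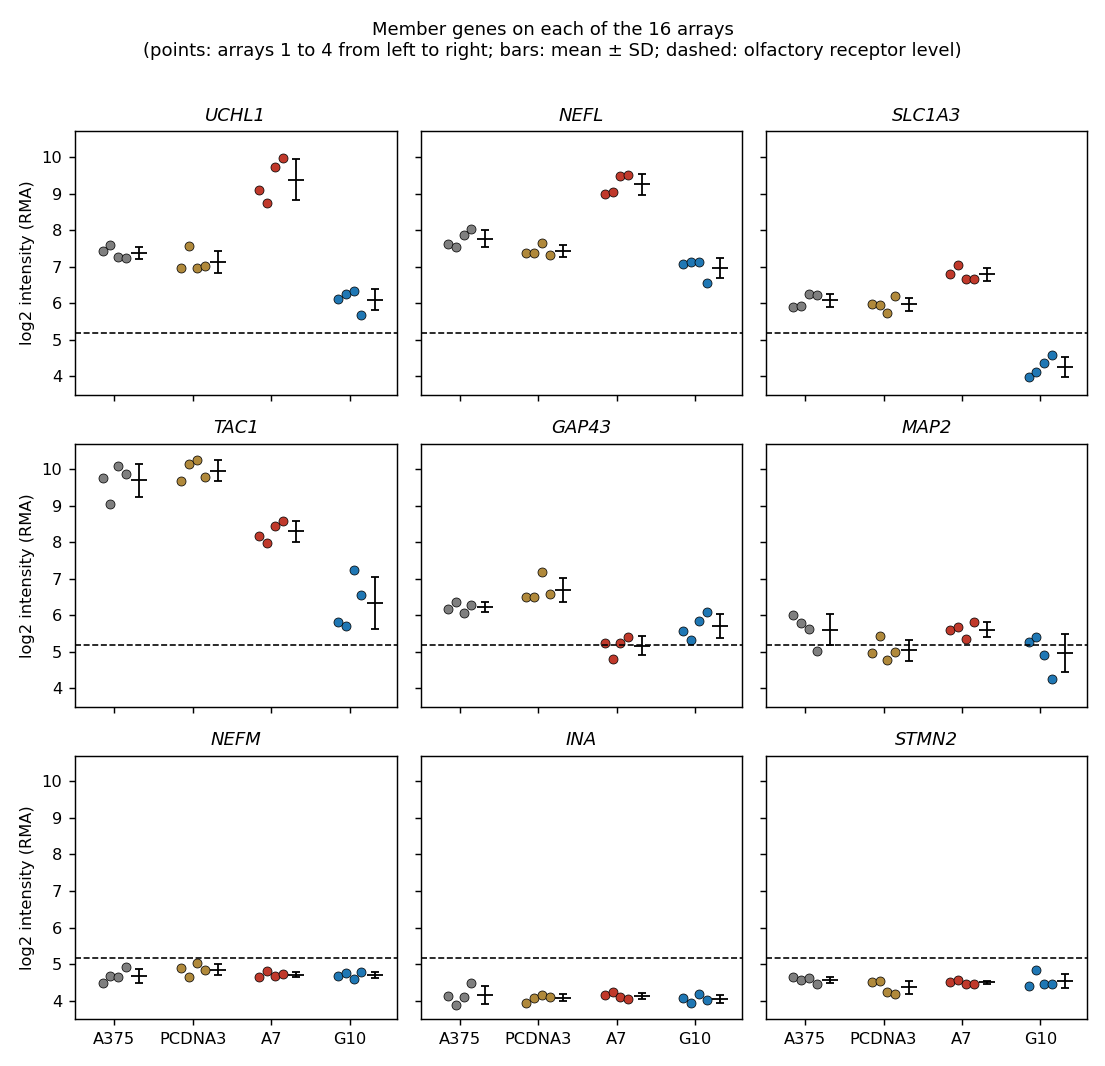
Log2 intensity of the 9 measured genes on each array, in 1 panel per gene, with the 4 groups on the horizontal axis, points for arrays 1 to 4 from left to right, bars for mean ± SD (n = 4) and a dashed line at the olfactory receptor level of 5.18. UCHL1, NEFL and SLC1A3 were highest in A7 and lowest in G10, TAC1 and GAP43 were highest in the control groups, and NEFM, INA and STMN2 stayed under the line.

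UCHL1 encodes a deubiquitinating enzyme that is abundant in neurons. In A375 its values were 7.42, 7.59, 7.28 and 7.24, and in PCDNA3 they were 6.96, 7.56, 6.97 and 7.03. In A7 they were 9.09, 8.74, 9.73 and 9.97, and in G10 6.13, 6.25, 6.33 and 5.68. All A7 arrays lay above and all G10 arrays below the 8 control arrays, whereas A375 and PCDNA3 overlapped. The means were 7.38 ± 0.16 (SD, n = 4), 7.13 ± 0.29, 9.38 ± 0.57 and 6.10 ± 0.29 in the order A375, PCDNA3, A7 and G10. This corresponded to 2.13 ± 0.20 (SE), or 4.37-fold, in A7 vs control and to -1.16 ± 0.20, or 2.23-fold lower, in G10 vs control. Between the clones the difference was -3.29 ± 0.23, or 9.75-fold. Within A7, arrays 3 and 4 were higher than arrays 1 and 2 by more than the whole range of the A375 arrays. Without G10 arrays 1 and 2 the difference in G10 vs control was -1.25, and without arrays 3 and 4 it was -1.07.

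The UCHL1 promoter is printed because UCHL1 had the widest spread of group means after TAC1, 3.29 log2 units. The sequence from RefSeq covers 250 bases before to 50 after the start site on the plus strand of chr4:41256678-41256977 (GRCh38.p14), with motif matches in capitals:
UCHL1: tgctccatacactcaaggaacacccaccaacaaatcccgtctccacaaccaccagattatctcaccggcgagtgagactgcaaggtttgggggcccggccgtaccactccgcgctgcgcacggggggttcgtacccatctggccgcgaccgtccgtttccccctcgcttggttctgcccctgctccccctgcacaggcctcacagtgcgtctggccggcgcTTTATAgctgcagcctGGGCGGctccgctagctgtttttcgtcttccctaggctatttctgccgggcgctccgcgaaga
It is 63.0% GC with 25 CpG sites, an observed to expected CpG ratio of 0.87, against medians of 58.7% and 0.58 over 35116 RefSeq promoters. The capitals mark a TATAAA box on the reverse strand at -29, which 11.5% of the promoters hold on either strand, and a GC box, GGGCGG, at -13, which 45.0% hold. The other 5 of the 7 motifs searched, each spelled out where it is described, had no match in this window, and the matches did not overlap. These matches describe letters and not binding.

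NEFL encodes the neurofilament light chain. Its values were 7.63, 7.54, 7.87 and 8.05 in A375 and 7.37, 7.37, 7.66 and 7.31 in PCDNA3. They were 8.98, 9.05, 9.47 and 9.50 in A7 and 7.07, 7.12, 7.13 and 6.55 in G10. As for UCHL1, the arrays of A7 were all above and those of G10 all below the controls, and A375 and PCDNA3 overlapped. The means of 9.25 ± 0.28 (SD, n = 4) in A7 and 6.97 ± 0.28 in G10 compared with 7.77 ± 0.23 in A375 and 7.43 ± 0.16 in PCDNA3. NEFL was higher by 1.65 ± 0.14 (SE) or 3.14-fold in A7 vs control, and the difference in G10 vs control was -0.63 ± 0.14, or 1.55-fold lower. Against PCDNA3 cells alone the G10 difference shrank to -0.46, since PCDNA3 lay under A375 by 0.34, and NEFL was then no longer called (adjusted p = 0.0653 in limma). Without G10 arrays 1 and 2 it was -0.76, and without arrays 3 and 4 it was -0.51.

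NEFM encodes the medium neurofilament chain. NEFM ranged from 4.47 to 5.03 and INA from 3.88 to 4.48 over the 16 arrays, below the olfactory receptor level in every group, so no size of change is given. Neither passed the test in any comparison. NEFM is the gene next to NEFL in the RefSeq order, and DOCK5, its neighbour on the other side, passed the test in none of the comparisons either (adjusted p from 0.107 to 0.927 in limma). No call was thus made for either gene beside NEFL.

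NEFH, the heavy neurofilament chain, was the largest change among the 7 other intermediate filament genes and was downregulated in both clones. Its values were 6.87, 6.72, 6.90 and 6.73 in A375 and 7.0, 6.52, 6.46 and 6.75 in PCDNA3. They were 5.19, 4.71, 5.38 and 5.20 in A7 and 4.92, 5.22, 5.02 and 4.97 in G10. Both clones lay around the olfactory receptor level and below every control array. NEFH fell by at least 1.51 in A7 vs control (measured difference -1.62, adjusted p = 5.27e-07) and by at least 1.56 in G10 vs control (measured difference -1.71, adjusted p = 8.97e-08). NEFL and NEFH therefore moved in opposite directions in A7 and in the same direction in G10. In G10 vs A7 both means lay below the olfactory receptor level, and no size is given.

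NES, which encodes nestin of neural progenitors, fell in G10 vs control (-0.51, adjusted p = 0.00207), and VIM, which encodes vimentin, rose by 0.24 (adjusted p = 0.0224). Neither passed the test in A7 vs control, where the differences were 0.21 and -0.21. PRPH, DES, GFAP and SYNM passed it in no comparison. SYNM, the gene of the filament-linking protein synemin, divided the G10 arrays, with 10.66 and 10.57 in arrays 1 and 2 and 9.03 and 9.40 in arrays 3 and 4. In all, 1 of the 7 genes was called in A7 vs control and 3 of 7 in G10 vs control, or 14.3% and 42.9%, beside 5.69% and 17.8% of all clusters.

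**Figure D2:**
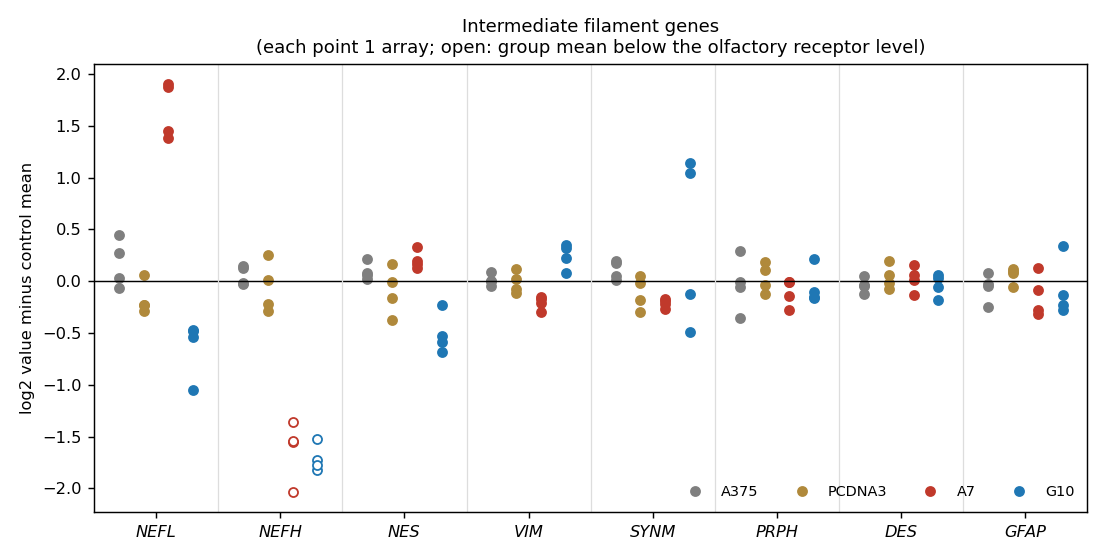
Log2 value of each array minus the mean of the control groups for NEFL and 7 other intermediate filament genes, with 1 point per array coloured by group and open points where the group mean was below the olfactory receptor level. NEFL was split upward in A7 and downward in G10, NEFH was lower in both clones, and SYNM spread over the G10 arrays from -0.49 to 1.14.

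TUBB3, the neuronal beta-tubulin, could not be separated from MC1R, the melanocortin receptor gene that lies before it. The shared row had means of 9.68 in A375, 9.82 in PCDNA3, 9.43 in A7 and 9.51 in G10. It was lower in A7 vs control by 0.31 on the log2 scale (difference -0.31, adjusted p = 0.0345), and its difference in G10 vs control was -0.24 (adjusted p = 0.0561). The separate cluster of MC1R had differences of -0.41 (adjusted p = 0.0224) and -0.29 (adjusted p = 0.0583). The shared row and the MC1R row thus had the same signs, and no value can be given to TUBB3 itself. DEF8, the gene after TUBB3, passed the test in no comparison.

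Among 22 measured tubulins and tubulin-folding cofactors, 1 was upregulated and none was downregulated in A7 vs control, with a median difference of -0.08. This was TUBB4A, a beta-tubulin of brain, which rose by 0.98. In G10 vs control 4 rose and 4 fell, with a median of -0.13. TUBG2, a gamma-tubulin, rose by 0.67, whereas TUBB6 and TUBB4B fell by 0.58 and 0.53. The calls made up 4.55% and 36.4% of the list, beside 5.69% and 17.8% of all clusters.

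MAP2 encodes a dendritic microtubule-binding protein. Its values were 6.0, 5.80, 5.62 and 5.02 in A375, 4.96, 5.44, 4.77 and 5.01 in PCDNA3, 5.61, 5.68, 5.34 and 5.81 in A7, and 5.26, 5.41, 4.92 and 4.25 in G10. The groups overlapped around the olfactory receptor level. The differences were 0.28 in A7 vs control (95% confidence interval -0.16 to 0.72, adjusted p = 0.56) and, as measured, -0.36 in G10 vs control (-0.80 to 0.08, adjusted p = 0.284). The G10 mean of 4.96 lay below the olfactory receptor level, which leaves a bound of -0.07 for G10 vs control. In G10 vs A7 the measured difference of -0.65 (bound -0.35) had an adjusted p of 0.0878 in limma. Without G10 arrays 1 and 2 the measured difference was -1.02 (adjusted p = 0.0152), and without arrays 3 and 4 it was -0.27 (adjusted p = 0.559). In PCDNA3 vs A375 the measured difference was -0.57 (bound -0.37, adjusted p = 0.339), with the PCDNA3 mean of 5.04 below that level. Against A375 cells alone the difference of A7 was -0.0006. UNC80, a sodium leak channel subunit gene after MAP2, rose by 0.60 in A7 vs control (adjusted p = 0.00102) and fell by 0.32 in G10 vs control (difference -0.32, adjusted p = 0.0264), while PTH2R on the other side was below the olfactory receptor level in all groups.

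STMN2 had values of 4.17 to 4.83 and was not above the olfactory receptor level in any group. Its ubiquitous relative STMN1 was 10.53 in A375 and fell by 0.47 in G10 vs control (difference -0.47, adjusted p = 0.00548). IL7, which precedes STMN2 in the gene order, was below the olfactory receptor level in both control groups and rose by at least 0.86 in A7 vs control and at least 0.88 in G10 vs control (measured differences 2.07 and 2.09). HEY1, on the other side, had a difference of -0.14 in A7 vs control and of -1.04 in G10 vs control (adjusted p = 0.000138). STMN2 stayed below that level between both.

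Of 30 other genes for microtubule-binding proteins, stathmins and collapsin response mediators, 1 rose and 3 fell in A7 vs control, and 4 rose and 4 fell in G10 vs control. These were 13.3% and 26.7% of the list, beside 5.69% and 17.8% of all clusters. The calls in A7 vs control include DPYSL5, which was dimmer than the olfactory receptor level in both groups compared. KIF5C, a neuronal kinesin heavy chain that carries cargo along axons, had values of 5.44, 5.72, 5.89 and 6.02 in A7 and of 7.87, 7.82, 7.66 and 7.49 in G10. Its control arrays ranged from 6.12 to 6.87, and each clone lay outside that range on all arrays. KIF5C fell by 0.64 in A7 vs control and rose by 1.30 in G10 vs control, a difference of 1.94 between the clones. ANK3, which encodes ankyrin-G of the axon initial segment, fell in A7 vs control (-1.47), and MAP1B and MAP1A, which bind axonal and dendritic microtubules, fell in G10 vs control (-0.98 and -0.78). MAPT, the gene of tau, rose by 0.44 in G10 vs control (adjusted p = 0.00187).

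GAP43 was the only one of NEFM, INA, GAP43, STMN2 and MAP2 that passed the test. Its values were 6.16, 6.38, 6.06 and 6.29 in A375 and 6.51, 6.51, 7.18 and 6.60 in PCDNA3. They were 5.25, 4.81, 5.24 and 5.41 in A7 and 5.58, 5.32, 5.84 and 6.10 in G10. Every A7 array lay below every control array, whereas the highest G10 array, at 6.10, lay above the lowest A375 array, at 6.06. GAP43 fell by at least 1.19 in A7 vs control (measured difference -1.29 ± 0.16 (SE), adjusted p = 9.98e-05) and by 0.75 in G10 vs control (difference -0.75 ± 0.16, adjusted p = 0.00272). The fall in G10 depended on the array pair. It was -1.01 (adjusted p = 0.000925) without arrays 3 and 4 and -0.49 (adjusted p = 0.0887) without arrays 1 and 2. Against A375 cells alone it was -0.51 (adjusted p = 0.0728). Since the A7 mean was just below the olfactory receptor level, the measured difference of 0.53 in G10 vs A7 has a bound of 0.44 (adjusted p = 0.0599).

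The empty-vector line was the highest group for GAP43, with a mean of 6.70 ± 0.32 (SD, n = 4) against 6.22 ± 0.14 in A375. Every PCDNA3 array lay above every A375 array, as for 6.26% of all clusters, and the difference of 0.48 had an adjusted p of 0.282 in limma. LSAMP, a neural adhesion molecule gene after GAP43, fell in G10 vs control (-1.09, adjusted p = 0.000591) and had a difference of 0.12 in A7 vs control. ZBTB20, on the other side, passed the test in no comparison. The GAP43 promoter is shown because GAP43 was called in both clones vs control, on the plus strand of chr3:115623260-115623559 (GRCh38.p14):
GAP43: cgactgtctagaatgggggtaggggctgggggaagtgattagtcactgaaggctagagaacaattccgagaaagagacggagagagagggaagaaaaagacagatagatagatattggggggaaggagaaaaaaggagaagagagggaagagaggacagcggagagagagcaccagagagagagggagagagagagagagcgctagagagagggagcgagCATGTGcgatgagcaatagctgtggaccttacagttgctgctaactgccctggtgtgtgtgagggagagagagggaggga
Its GC content was 52.7% and its CpG ratio 0.51. The capitals mark CATGTG at -30, an E-box variant that 11.1% of the promoters hold, and the other motifs searched gave no match.

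The growth cone list of 14 further genes had 3 upregulated and 1 downregulated gene in A7 vs control, and 3 and 2 in G10 vs control, or 28.6% and 35.7% beside 5.69% and 17.8% of all clusters. CAP2, an actin-binding protein gene, rose in both (1.12 and 0.57). GPM6B, a membrane glycoprotein of neurons and glia, rose in A7 vs control (0.91), and its relative GPM6A rose by at least 0.46 (measured difference 0.90). NRGN, the gene of the postsynaptic calmodulin-binding protein neurogranin, fell in both (-0.49 and -0.70). In G10 vs control L1CAM and NRN1, both promoters of neurite outgrowth, rose by 1.01 and 0.97. BASP1 and MARCKS, which like GAP43 bind the inner membrane of growth cones, passed the test in neither. Among the calls in G10 vs control, GPRIN3 was dimmer than the olfactory receptor level in both groups compared.

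TAC1 encodes the precursor of substance P and neurokinin A, peptides of sensory neurons. Its values were 9.77, 9.06, 10.08 and 9.87 in A375 and 9.68, 10.14, 10.26 and 9.78 in PCDNA3. They were 8.17, 7.97, 8.45 and 8.59 in A7 and 5.81, 5.72, 7.25 and 6.57 in G10. The control groups overlapped, every A7 array lay below them, and every G10 array lay below every A7 array. The means were 9.69 ± 0.44 (SD, n = 4), 9.96 ± 0.28, 8.30 ± 0.28 and 6.33 ± 0.72 in the order A375, PCDNA3, A7 and G10. TAC1 thus differed by -1.53 ± 0.25 (SE), 2.89-fold lower, in A7 vs control and by -3.49 ± 0.25, 11.3-fold lower, in G10 vs control. The G10 arrays divided by pair, and the difference was -4.06 without arrays 3 and 4 and -2.92 without arrays 1 and 2. Both lay beyond the difference in A7.

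The TAC1 promoter is shown as that of the member with the widest span of group means, 3.63 log2 units, on the plus strand of chr7:97731836-97732135 (GRCh38.p14):
TAC1: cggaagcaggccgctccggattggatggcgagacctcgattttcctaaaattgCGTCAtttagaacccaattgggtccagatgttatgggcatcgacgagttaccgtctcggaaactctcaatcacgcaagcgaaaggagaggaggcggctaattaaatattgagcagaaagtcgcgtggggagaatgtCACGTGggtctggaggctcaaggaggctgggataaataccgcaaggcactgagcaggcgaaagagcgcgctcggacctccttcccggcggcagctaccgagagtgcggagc
The GC content was 55.7% and the CpG ratio 1.1, above the third quartile of 0.86 over all promoters. The capitals mark the E-box CACGTG at -61, held by 7.26% of the promoters, and the cyclic AMP response motif TGACG on the reverse strand at -197, held by 24.6%. SDHAF3, the gene before TAC1, passed the test in no comparison. ASNS, the asparagine synthetase gene after it, fell in both clones vs control (-0.41, adjusted p = 0.00764, and -0.33, adjusted p = 0.0107).

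No other tachykinin or receptor gene was called. The peptide genes TAC3 and TAC4 and the receptor genes TACR1, TACR2 and TACR3 passed the test in no comparison, and TACR1 and TACR3 were below the olfactory receptor level in every group. PAM, which amidates substance P and many other peptides, ranged from 9.83 to 10.31 over the group means and was not called, and neither was ACE. MME, which encodes the membrane protease neprilysin that cleaves substance P, rose by 2.06 in A7 vs control (adjusted p = 2.42e-07). Its A7 arrays were 7.43, 7.57, 7.46 and 7.55, while the other 3 groups ranged from 5.02 to 5.95.

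CPE, the carboxypeptidase that trims peptide precursors in secretory granules, rose by 1.58 in A7 vs control (adjusted p = 4.71e-07). Its values were 6.94, 6.66, 6.82 and 6.81 in A7, and 5.52, 5.59, 5.59 and 5.56 in A375. PCDNA3, with 4.85, 4.88, 4.84 and 5.03, and G10, with 4.32, 4.60, 3.73 and 4.18, were below the olfactory receptor level. The fall in G10 vs control was at least 0.06 (measured difference -1.02, adjusted p = 1.54e-05).

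**Figure D3:**
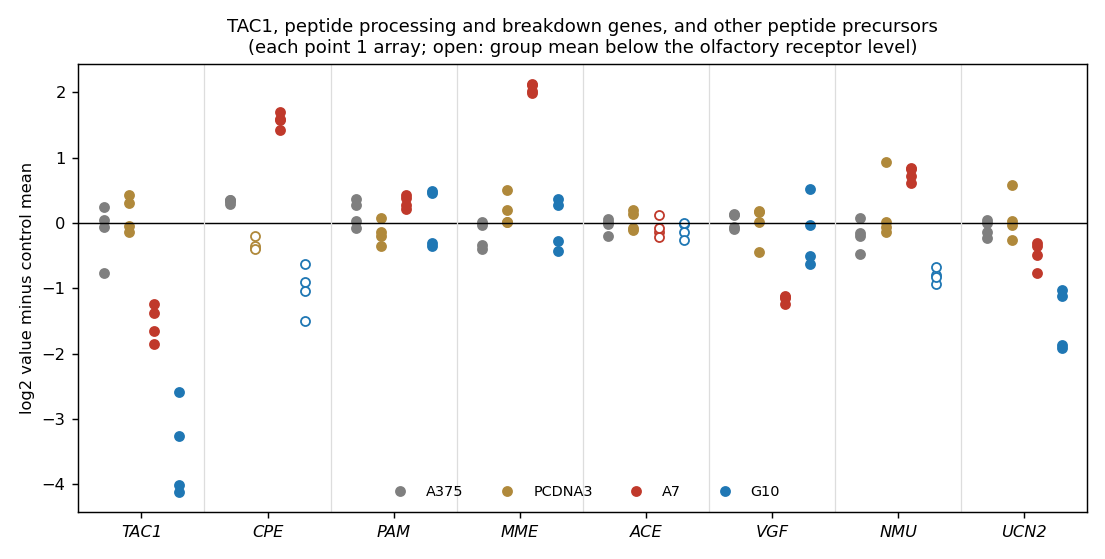
Log2 value of each array minus the mean of the control groups for TAC1, the processing genes CPE and PAM, the peptidase genes MME and ACE, and the peptide precursors VGF, NMU and UCN2, with 1 point per array coloured by group and open points where the group mean was below the olfactory receptor level. TAC1 was lower in both clones, while CPE and MME were higher in A7 and PAM and ACE passed the test in neither clone.

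Over the list of 51 measured neuropeptide, granin and processing genes, 3 rose and 1 fell in A7 vs control, and none rose and 6 fell in G10 vs control, with median differences of -0.05 and -0.09. The calls were 7.84% and 11.8% of the list, against 5.69% and 17.8% of all clusters, so the share called in G10 was below that of the whole array. NMU, the neuromedin U precursor, rose by 0.75 in A7 vs control and fell by at least 0.56 in G10 vs control (measured difference -0.81). VGF, the precursor of several nerve growth factor-induced peptides, fell in A7 vs control (-1.16). UCN2 and NMB, the precursors of urocortin 2 and neuromedin B, fell in G10 vs control (-1.48 and -0.58). UCN2 divided the G10 arrays in the same way as TAC1 did but in the opposite sense, with 8.77 and 8.69 in arrays 1 and 2 and 7.94 and 7.90 in arrays 3 and 4.

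SLC1A3 encodes a glutamate and aspartate transporter best known from astrocytes. Its values were 5.91, 5.94, 6.25 and 6.22 in A375 and 5.98, 5.96, 5.73 and 6.20 in PCDNA3. They were 6.80, 7.05, 6.66 and 6.67 in A7 and 3.97, 4.11, 4.35 and 4.59 in G10. The A7 arrays were all above the controls, and all 4 G10 arrays lay below the olfactory receptor level. SLC1A3 was higher by 0.77 ± 0.12 (SE), or 1.71-fold, in A7 vs control. In G10 vs control it was lower by at least 0.85 (bound -0.85, measured difference -1.77), and in G10 vs A7 by at least 1.62 (bound -1.62, measured difference -2.54). RANBP3L and NIPBL, the genes on either side, passed the test in no comparison. RefSeq gives SLC1A3 3 start sites on chromosome 5, which the array does not separate, so its promoters are not printed. The first window held a GC box at -158, a motif found in 45.0% of promoters. The second held the E-box variant CATGTG at +4, found in 11.1%, and the antioxidant response core TGACNNNGC at -196, found in 13.3%. The third held the AP-1 site TGANTCA, found in 7.71%, at -128 and -26.

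Of the other glutamate transporters, SLC1A2 was below the olfactory receptor level in every group, and SLC1A1 passed the test in no comparison (adjusted p from 0.0935 to 0.641). SLC17A6, the vesicular glutamate transporter of excitatory neurons, rose by at least 2.42 in A7 vs control (measured difference 2.70, adjusted p = 9.21e-08). Its A7 arrays were 7.96, 8.01, 7.43 and 7.50, and the arrays of the other groups ranged from 4.50 to 5.68. SLC17A6 was thus higher in A7 vs control, as SLC1A3 was. SLC38A1, a glutamine transporter, fell in G10 vs control (-1.66) with values of 6.59 and 6.84 in arrays 1 and 2 and of 8.66 and 7.79 in arrays 3 and 4. Its A7 arrays, from 9.52 to 9.92, all lay above the control arrays, from 8.95 to 9.32, with a difference of 0.60 in A7 vs control (adjusted p = 0.253). The limma fit behind this value shared its spread over all 16 arrays, those of G10 included. For SLC38A1 the SD was 0.95 in G10, against 0.17 in A7, 0.05 in A375 and 0.05 in PCDNA3. SLC1A4, a neutral amino acid transporter of the same family as SLC1A3, rose by 0.90 in G10 vs control. In all, 1 of the 16 measured genes rose and 1 fell in A7 vs control, and 1 rose and 3 fell in G10 vs control. These were 12.5% and 25% beside 5.69% and 17.8% of all clusters. The gene that fell in A7 vs control, SLC38A5, was dimmer than the olfactory receptor level in both groups compared.

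Among the relatives of UCHL1, UCHL3 passed the test in no comparison, and UCHL5, a proteasome-associated deubiquitinase gene, fell in G10 vs control by 0.30 (difference -0.30, adjusted p = 0.0186). None of the 5 measured genes of that list was called in A7 vs control, where 5.69% of all clusters were, and 1 of the 5 was called in G10 vs control, where 17.8% were. UCHL1 lies between APBB2 and LIMCH1 in the RefSeq gene order. APBB2, an adaptor of the amyloid precursor protein, rose in both clones vs control (1.15 and 1.40). LIMCH1, an actomyosin regulator, was below the olfactory receptor level in both control groups and rose by at least 2.18 in A7 vs control and at least 0.80 in G10 vs control (measured differences 2.84 and 1.47). UCHL1, in between, was higher in A7 and lower in G10.

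The genes closest to each member over the 16 arrays were found among 18416 other genes by the root mean square distance of the profiles after each was centred on its mean. For UCHL1 they were NEFL (0.45 log2 units), CPE (0.46) and MAN1A1 (0.49), and for NEFL they were NAP1L3 (0.33), SPECC1 (0.34) and CPE (0.34). For SLC1A3 they were L3MBTL4 (0.21), PPFIBP2 (0.24) and TENT5C (0.28). For GAP43 they were PTGES (0.21), SLC12A8 (0.26) and IL10 (0.28), and for TAC1 they were TLR4 (0.58), TRIML2 (0.62) and ST8SIA5 (0.64). Values below the olfactory receptor level entered these distances as measured, namely those of CPE in PCDNA3 and G10, SLC1A3 and L3MBTL4 in G10, GAP43 in A7 and IL10 in both clones, so that the ranks of these genes rest in part on signal not above that level. NEFL was thus the closest gene to UCHL1, although UCHL1 was not among the 3 closest to NEFL. Both were chosen with their differences on these arrays known, so their closeness is not a separate result. None of the closest genes of TAC1, GAP43 or SLC1A3 was another member.

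**Figure D4:**
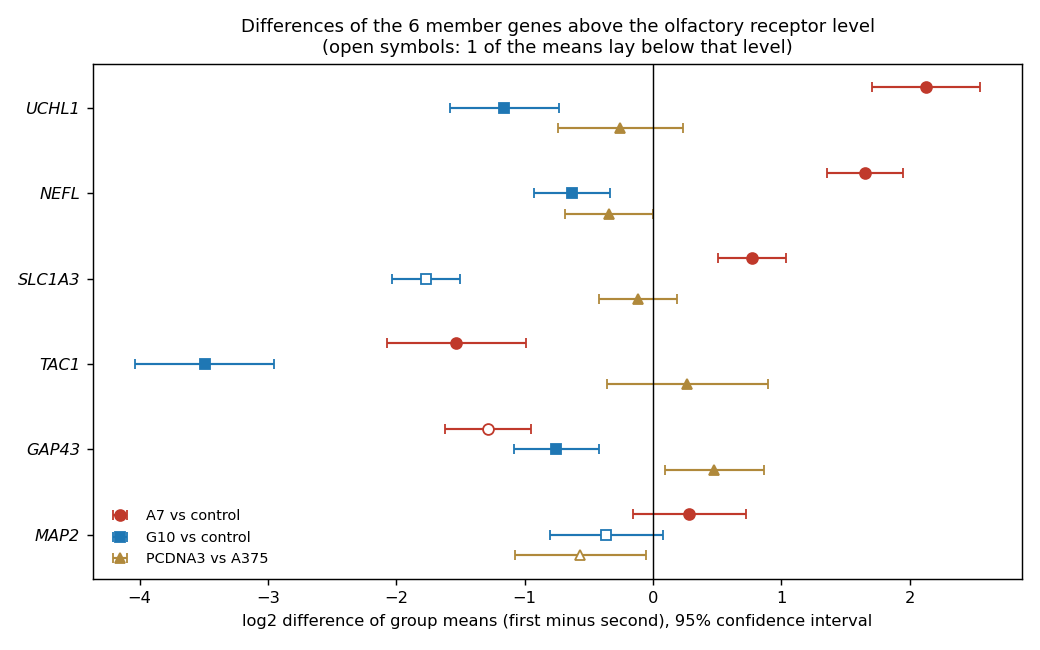
Log2 difference of group means with 95% confidence intervals for 6 genes in A7 vs control, G10 vs control and PCDNA3 vs A375, with open symbols where 1 mean was below the olfactory receptor level. UCHL1, NEFL and SLC1A3 lay on opposite sides of 0 in A7 and G10, TAC1 and GAP43 lay below 0 in both, and the intervals of MAP2 in both clones included 0.

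Across the 9 lists of neuronal genes, 200 genes were measured and 145 were above the olfactory receptor level in at least 1 group. Since the lists were chosen with earlier results of these arrays known, the shares called are a description and not read as enrichment. In A7 vs control 10 rose and 9 fell, or 9.5% of them beside 5.69% of all clusters, with a median difference of -0.06 against -0.02 for all clusters. In G10 vs control 18 rose and 26 fell, or 22.0% beside 17.8%, with a median of -0.07 against -0.04. These calls include DPYSL5, SLC38A5 and ELAVL2 in A7 vs control and GPRIN3 in G10 vs control, each dimmer than that level in both groups compared. In G10 vs A7 16 were higher and 19 lower, or 17.5% beside 15.2%, and in PCDNA3 vs A375 none was called, although 4198 of all clusters had an unadjusted p under 0.05 there. Of 28 synaptic vesicle genes, 3.57% were called in A7 vs control, which was SV2A alone (-0.71), and 14.3% in G10 vs control, among them PCLO of the presynaptic active zone (1.08) and UNC13A of vesicle priming (-0.48). Of 27 neuronal regulators of transcription and RNA, 7.41% were called in A7 vs control and 18.5% in G10 vs control. Among them, NOVA1, a neuronal splicing factor, rose by at least 0.75 in A7 vs control and at least 0.59 in G10 vs control. REST, the repressor of neuronal genes, rose by 0.23 in G10 vs control (adjusted p = 0.0176) and had a difference of 0.18 in A7 vs control (adjusted p = 0.126). PTBP2, a neural splicing repressor, fell in G10 vs control (-0.50), and POU3F2 rose by 0.38.

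**Figure D5:**
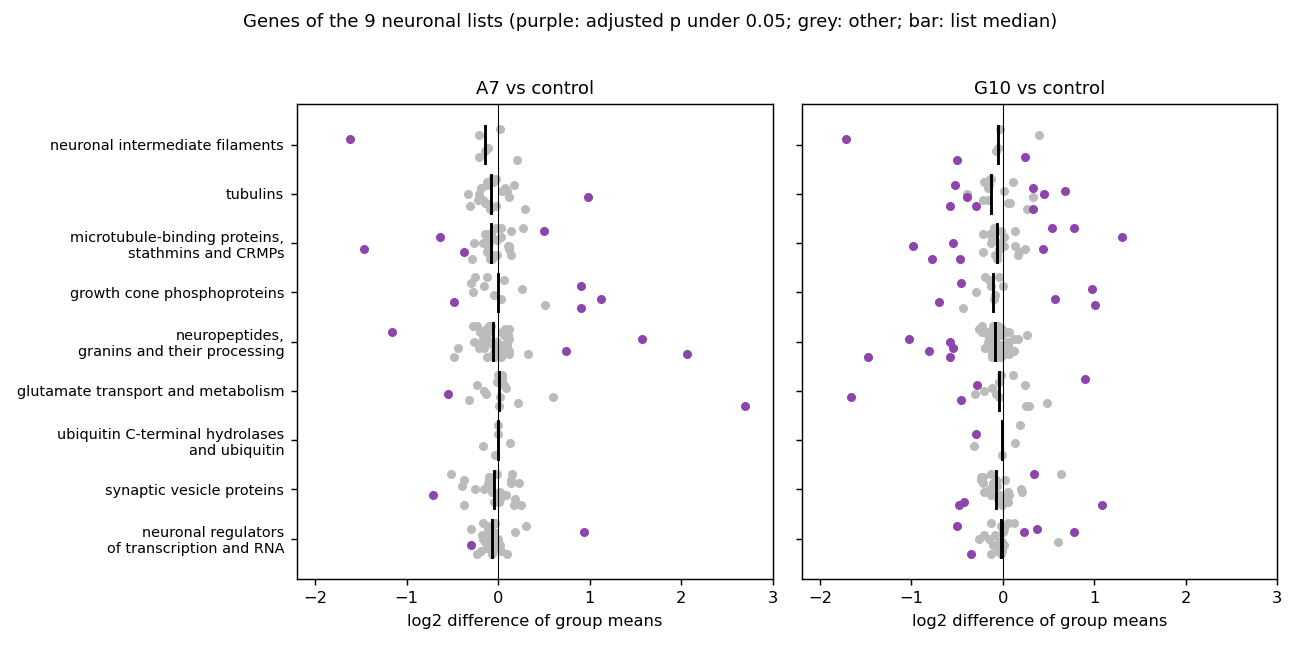
Log2 difference of group means in A7 vs control and G10 vs control for the measured genes of the 9 lists, with 1 point per gene, purple for an adjusted p under 0.05 in limma, grey for the others and a black bar at the list median. The lowest list median was -0.14, for the intermediate filaments in A7 vs control, and calls lay on both sides of 0.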

How the data were processed

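RNA of A375 and PCDNA3 cells and of the catalase-transfected clones A7 and G10 was measured on 16 arrays, 4 biological replicates per group. Per the labels and methods, RMA was run by the authors, so each deposited value is a log2 intensity, given for 33297 transcript clusters. No version of RMA or limma is named for that step in the sources consulted. Array medians were 5.85 to 5.97, and the number of arrays per group limits the precision. Gene names came from the array annotation, in which 19460 clusters had 1 symbol, 1754 several and 12083 none. Clusters with several symbols were tested but not assigned to a gene.

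In R 4.3.3 with limma 3.58.1, 1 mean per group was fitted to all 16 arrays with lmFit and eBayes, with Benjamini-Hochberg adjustment across every cluster within each of 4 comparisons. Python 3.11.15 was used for tables and plots. The procedure was tested on simulated data. The genes described, the 9 lists and the 7 marker lists were chosen with earlier results of these data known. Named genes were the members, CAT, the up to 4 most changed genes of each list and comparison among those past an adjusted p of 0.05, the nearest genes on the chromosome, the 3 genes closest in profile, and markers. Values without a call and further genes, mainly relatives of the members and genes that divided the G10 arrays, were named after their values were seen. Replicate numbers did not pair the arrays. Alternatives were other control groups, scalings, variance models, filters and limits, a replicate block, leaving out each array, and, chosen after seeing the data, leaving out either pair of G10 arrays. Promoters came from RefSeq (GRCh38.p14). Those of NEFL, NEFM and STMN2 are not analysed here, and 7 motifs were searched on both strands.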

Additional observations from a re-analysis of the deposited data

Results flagged for a closer look

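In 4 of 36 groups of 4 arrays, 1 array stood apart by Dixon's criterion, which chance meets in about 1 of 20 groups. For UCHL1 in PCDNA3 the highest array was 7.56, and its gap to the next was 0.874 of the range. For NEFL in G10 the lowest array was 6.55 (0.891 of the range), and for GAP43 in PCDNA3 the highest was 7.18 (0.872). For STMN2 in G10 the highest array was 4.83 (0.863), below the olfactory receptor level like the others. The flags fell on 4 different arrays.

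The effects of the clones against the shared controls differed by the direct contrast of G10 minus A7 for UCHL1 (-3.29), NEFL (-2.28), TAC1 (-1.96) and SLC1A3 (-2.54 as measured, with a bound of -1.62 because SLC1A3 in G10 was below the olfactory receptor level). For UCHL1, NEFL and SLC1A3 the clones lay on opposite sides of the controls, and for TAC1 both lay below them. These differences were known when the genes were chosen.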

How the results depend on the processing

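Under the stricter limit (adjusted p under 0.001 and a log2 fold change of at least 1), 3 members were called in A7 vs control and 3 in G10 vs control, and 7, 6 and 9 list genes in A7 vs control, G10 vs control and G10 vs A7. In PCDNA3 vs A375, where no list gene was called, 2 were called when only clusters with a symbol were adjusted, 2 when only clusters above the olfactory receptor level were tested, 7 with only the arrays compared, 1 after quantile normalization, 5 with array weights, 1 with values raised to the olfactory receptor level, and 9 and 10 without G10 arrays 1 and 2 or 3 and 4. Without G10 arrays 3 and 4, 56 list genes were called in G10 vs A7. Leaving out 1 array at a time gave 5 members in each clone vs control, 4 to 6 in G10 vs A7 and 0 in PCDNA3 vs A375, and 13 to 21, 32 to 53, 29 to 39 and 0 to 3 list genes in the same order; the 1, 1 and 3 list genes of the last came without G10 replicate 1, 2 and 3. The MAP2 difference changed sign in A7 vs control with A375 cells alone as control (-0.0006) and in G10 vs control without G10 arrays 3 and 4 (0.0112). The GAP43 difference of G10 vs A7 passed the limit in 5 of 10 other settings, without PCDNA3 replicate 3 (adjusted p = 0.0312) or G10 replicate 2 (adjusted p = 0.0237), and without G10 arrays 1 and 2 (adjusted p = 0.0137). The cause was not tested. Same-numbered arrays did not deviate together (r from -0.16 to 0.23). With the replicate block, 5, 5, 6 and 0 members and 19, 44, 34 and 0 list genes were called, and GAP43 (adjusted p = 0.0478) and MAP2 (adjusted p = 0.0459) were added in G10 vs A7. Averaging several rows of a gene was not run, since each member had 1 row. NEFM, INA and STMN2 have no size because their signal was not above that of olfactory receptors.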
